A study of Mus musculus with 4 samples.

Results

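Glycolysis, pentose phosphate and hypoxia genes were examined in peritoneal macrophages of mice given glycated albumin. The members were the rows of the deposited gene table whose symbol is one of 34 named genes, from the glucose transporter Slc2a1 to the targets of hypoxia-inducible factor (HIF). Of the 34, 33 were listed among the 15575 genes of the table, and all 33 passed the filter on low counts that left 14181 genes for testing. The hypoxia target Adm is not among the listed genes, so its expression was not analysed here.

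Mice of the AGEs group received AGEs, which is bovine serum albumin (BSA) modified with dehydroascorbic acid (DHA), the oxidized form of vitamin C, and their controls received unmodified BSA. All were male C57BL/6 mice of 8 to 12 weeks with no genetic change. Either protein was injected intravenously at 10 mg/kg/day, beginning 24 h before an intraperitoneal injection of thioglycollate (TG), an irritant that recruits monocytes and macrophages. Both groups therefore share the TG inflammation, and no group without TG or without injected albumin was analysed here. Peritoneal exudate cells were taken 72 h after TG, and the cells that adhered to plastic were used as macrophages. Total RNA was sequenced in 2 libraries per group, called biological duplicates, without a statement of whether each came from 1 mouse or a pool. The p-values thus measure only the spread between these libraries.

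Glycolysis splits glucose into pyruvate and yields ATP without oxygen, and lactate dehydrogenase turns the pyruvate into lactate so that the pathway can go on. The pentose phosphate pathway branches off after the first phosphorylation and supplies NADPH and ribose phosphate. In normal oxygen, prolyl hydroxylases mark HIF-1α for degradation. When they are inhibited, HIF-1α accumulates and raises the transcription of glucose transporters, most glycolytic enzymes and its other targets. Macrophages activated by bacterial products are known to shift towards this program.

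The total counts were 23079245 and 24472926 in the AGEs libraries, and 17773088 and 22146761 in the BSA libraries. The members took 0.504% and 0.470% of them in the AGEs libraries, and 0.499% and 0.474% in the BSA libraries. All 10 macrophage markers were listed and none passed the study's threshold (over 1.5-fold, p under 0.05), their summed level being 15004 and 15740 CPM (counts normalised to library size) in the AGEs libraries and 17898 and 14179 CPM in the BSA libraries. The 3 listed neutrophil markers of 9 summed to 1.93 to 2.51 CPM over the 4 libraries. Of 9 T cell and NK cell markers, 1 was listed. B cell markers, all 7 listed, summed to 155 and 194 CPM in the AGEs libraries and 133 and 156 CPM in the BSA libraries. Mesothelial and fibroblast markers summed to 96.5 and 49.4 CPM in the AGEs libraries and 57.0 and 66.3 CPM in the BSA libraries. Resident peritoneal macrophage markers, 6 listed, summed to 89.0 and 63.5 CPM in the AGEs libraries and 96.7 and 48.1 CPM in the BSA libraries. AGEs replicate 2 stood apart in erythroid genes, whose sum was 2.45 and 221 CPM in the AGEs libraries, against 8.79 and 18.1 CPM in the BSA libraries. Among the other marker lists, some genes passed the threshold. Lower in the AGEs libraries were 4 of 7 proliferation, 4 of 5 listed dendritic cell and 1 of 4 tested monocyte genes. Higher were 2 of 8 listed mast cell and basophil genes. Of all genes tested, 0.945% were lower and 0.825% higher past it. The dendritic cell genes summed to 7.47 and 10.4 CPM in the AGEs libraries, against 16.9 and 14.5 CPM in the BSA libraries. The mast cell and basophil genes summed to 12.6 and 13.0 CPM in the AGEs libraries, against 5.36 and 11.5 CPM in the BSA libraries.

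Many HIF targets carry the core of the hypoxia response element, ACGTG, near their start. It was searched as ACGTG on the gene's strand and as CACGT, its reverse complement, in the 250 bases before each start of the RefSeq promoter table (GRCm38.p6). Both spellings overlap in CACGTG, which was counted on either strand. The table held 47 such windows of 32 members, Adm included, with none for Bnip3l and Ndrg1. The core was present in 22 windows (46.8%), against 16.6% of all 32851 windows. By gene it was present for 19 of the 32 members, against 18.5% of 27025 genes. A gene counted if any of its windows held the core, so genes with more annotated starts had more windows to match. The members had 47 windows for 32 genes, and all genes had 32851 windows for 27025. The member windows were also richer in G and C, with a median of 61.2% against 52.4%, and 22.9% of the 8272 windows at or above that GC content held the core. In at least 1 window, the core occurred for all 3 oxygen sensing genes and 6 of 7 HIF targets. It occurred for 3 of 4 genes each of glucose entry and lower glycolysis and 2 of 3 of lactate and pyruvate fate. It occurred for 2 of 7 of upper glycolysis and 0 of 4 of the pentose phosphate pathway. Aldoa, Pkm, Ldha, Vegfa, Hilpda, Mxi1 and Ak4 also have windows without it. Vegfa counted only through chr17:46025164-46025413, which lies inside the gene. The window before its outermost start, chr17:46032378-46032627, holds none. A match is a stretch of letters and not a shown binding site. Since the list includes genes named for being HIF targets, the higher share is no test of their regulation. The windows compared with are those of all genes, not only of the genes tested here.

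The following windows are printed 5′ to 3′ on the gene's strand, with the core in capitals, to show how it is placed in 2 enzymes, a sensor and the member with the smallest p. They are chrX:106186850-106187099 (plus strand) for Pgk1, chr7:46845554-46845803 (plus) for Ldha, chr12:54203875-54204124 (minus) for Egln3 and chr19:53329163-53329412 (plus) for Mxi1.
Pgk1: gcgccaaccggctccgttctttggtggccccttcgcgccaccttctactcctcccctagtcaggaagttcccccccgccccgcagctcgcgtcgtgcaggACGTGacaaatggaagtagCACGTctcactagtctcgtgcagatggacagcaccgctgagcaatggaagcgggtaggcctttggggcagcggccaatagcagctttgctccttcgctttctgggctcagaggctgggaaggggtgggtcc
Ldha: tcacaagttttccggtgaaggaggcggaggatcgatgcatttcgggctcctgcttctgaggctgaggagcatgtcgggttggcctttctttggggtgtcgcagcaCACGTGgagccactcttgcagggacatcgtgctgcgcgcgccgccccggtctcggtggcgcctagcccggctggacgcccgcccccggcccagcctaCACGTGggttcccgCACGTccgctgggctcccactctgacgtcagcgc
Egln3: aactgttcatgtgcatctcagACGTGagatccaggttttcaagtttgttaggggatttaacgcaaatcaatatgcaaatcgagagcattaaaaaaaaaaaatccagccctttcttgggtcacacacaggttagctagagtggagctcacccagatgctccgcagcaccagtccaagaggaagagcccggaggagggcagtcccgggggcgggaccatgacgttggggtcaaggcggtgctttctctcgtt
Mxi1: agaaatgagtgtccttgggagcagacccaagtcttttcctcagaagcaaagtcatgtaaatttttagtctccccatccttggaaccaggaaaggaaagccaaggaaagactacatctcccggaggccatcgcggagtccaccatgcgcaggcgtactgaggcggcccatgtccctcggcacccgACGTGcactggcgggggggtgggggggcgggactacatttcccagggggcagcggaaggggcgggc
The Pgk1 window holds the core once in each direction, and the Ldha window holds the palindrome CACGTG at 2 places and a further CACGT downstream of them. The Egln3 and Mxi1 windows hold it once each. Ldha and Mxi1 have further annotated starts, which lie in other windows. The other Ldha window holds no core. Of the other Mxi1 windows, chr19:53310256-53310505 holds none and chr19:53329445-53329694 holds 1.

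No member passed the study's threshold, set at a fold change over 1.5 together with p under 0.05 before adjustment, in edgeR's quasi-likelihood test. That is 0 of 33 members in either direction, against 1.77% of the 14181 genes tested, of which 0.825% were higher and 0.945% lower in the AGEs libraries. At an unadjusted p under 0.05 stood 1 member, Mxi1, against 5.64% of all genes, and DESeq2 gave the same counts of 0 and 1. No gene of the table reached a Benjamini-Hochberg adjusted p under 0.05 in edgeR with all 4 libraries, while DESeq2 gave 5, none of them a member, and the smallest adjusted p among the members was 0.848. In RNA of whole cell layers, fewer cells of a type and less RNA per cell cannot be told apart.

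The members' log2 fold changes of AGEs over BSA had a median of 0.0030, beside -0.0026 for all genes tested, and ran from -0.39 for Ak4 to 0.24 for Pfkfb4. Of them 18 were above 0 and 15 below, and 49.4% of all genes were above 0. After correction for each gene's GC content the members above 0 numbered 10, and with library size normalization 14. The medians of all genes tested were then -0.0076 and -0.024, and those of the members -0.045 and -0.018. The members' transcripts had a median GC content of 51.9%, against 49.5% for all genes with a value. The 2 AGEs libraries lay above both BSA libraries for 5 members and below both for 4, where 17.7% of all genes did so in each direction (35.3% together). With 2 libraries against 2, an exact permutation test of a single gene cannot go below p = 0.333, and smaller p-values draw on the variance estimate that edgeR moderates across genes.

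The intervals give the size of change these counts leave room for. The 95% interval of the fold change lay inside the 1.5-fold limits, on either side, for 30 of the 33 members and for 53.6% of all genes tested. Among genes above 32 CPM it was so for 28 of 29 members and for 97.3% of 4981 genes. The 3 exceptions were Egln3, Hilpda and Ak4. For the other 30, a change of 1.5-fold or more lies outside the interval, and smaller changes lie within it.

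**Figure D1:**
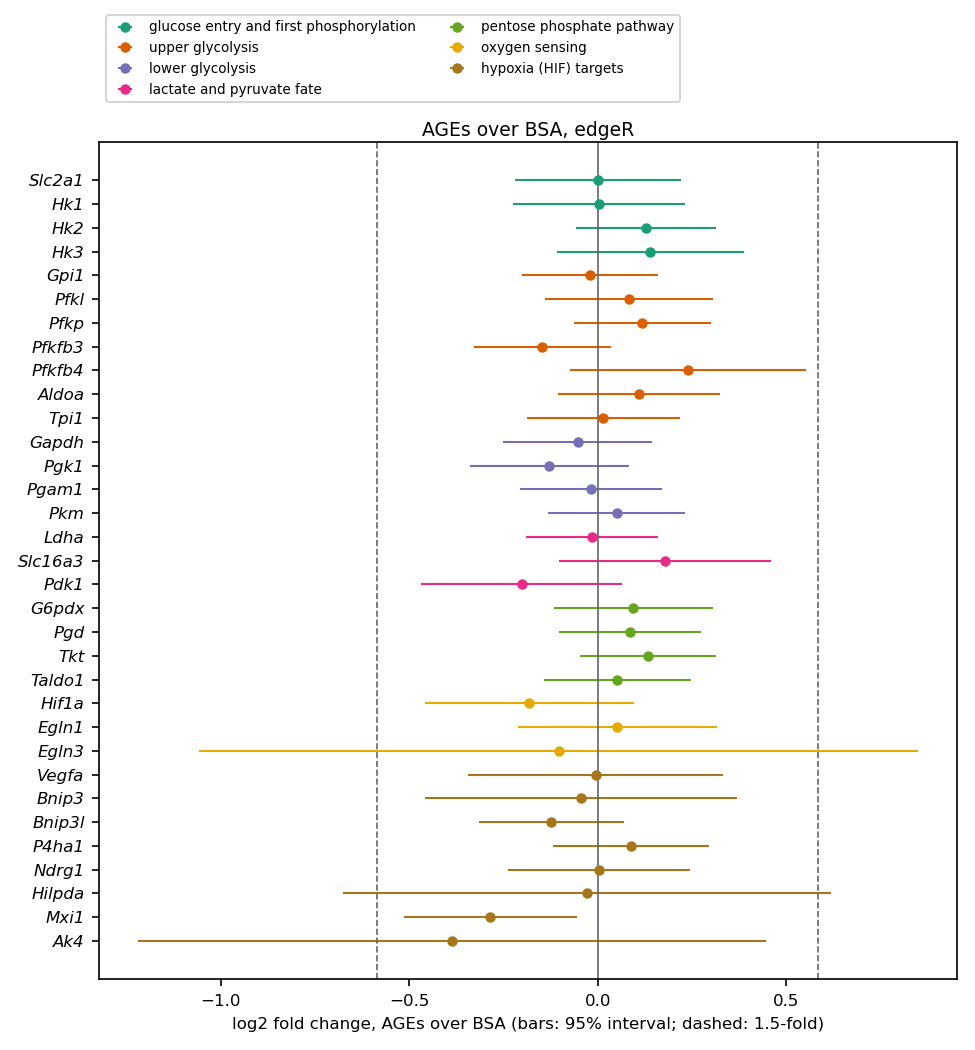
Log2 fold change of AGEs over BSA (x axis) for each of the 33 members (rows, coloured by role), with the 95% interval as a bar and dashed lines at a 1.5-fold change, from edgeR. All points lie between -0.39 and 0.24, and 30 of the 33 bars stay within the dashed lines, with Egln3, Hilpda and Ak4 the 3 that cross them.

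Levels per length are given as the authors' FPKM, since CPM cannot be compared between genes of different length. By the median over the 4 libraries, Aldoa (273 FPKM), Pkm (256), Ldha (205), Gapdh (116) and Hk3 (105) were the most abundant members. The lowest were Egln3 at 0.842 FPKM and Ak4 at 0.510 FPKM. The top of the order is thus held by enzymes of glycolysis and lactate formation and its end by a HIF-regulated hydroxylase and an adenylate kinase.

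**Figure D2:**
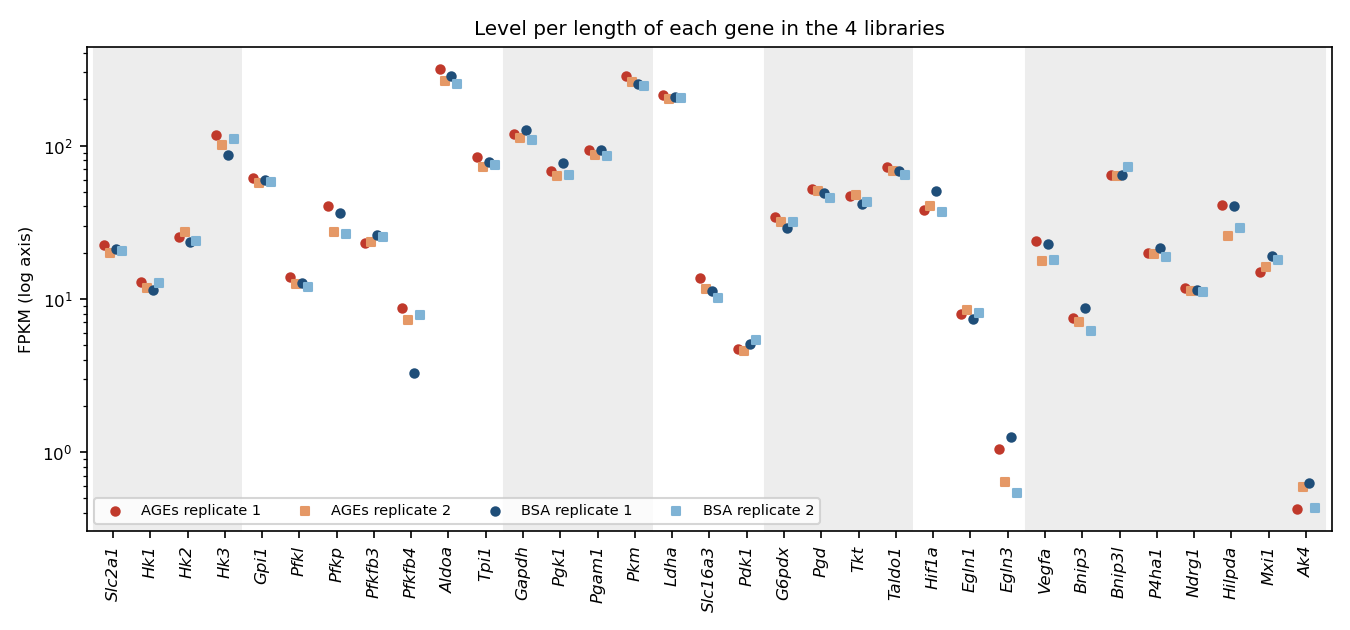
FPKM (log axis) of each of the 33 members, in order of role (shaded blocks), with 1 point per library, the AGEs libraries in red and orange and the BSA libraries in dark and light blue. The 4 points of most genes, set side by side, lie at similar heights on the log axis, from medians of 273 FPKM for Aldoa to 0.510 FPKM for Ak4.

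The genes of glucose entry and first phosphorylation had a median log2 fold change of 0.065, with all 4 above 0, of which Slc2a1 and Hk1 were below 0 with library size normalization or GC correction, and Slc2a1 also with the stricter filter or the block. Slc2a1 encodes GLUT1, the transporter through which activated macrophages take up glucose (chromosome 4 from 119108745 to 119137330, GRCm38.p6). It had 64.8 and 58.0 CPM in AGEs replicates 1 and 2, against 62.0 and 60.8 CPM in BSA replicates 1 and 2. The BSA libraries lay within the range of the AGEs libraries, and the log2 fold change was 0.00091 (SE 0.10, 95% interval -0.22 to 0.22, edgeR's unadjusted p = 0.993). Its close relative Slc2a3 was scarce, so that Slc2a1 made up 97.5% and 97.6% of the FPKM of the pair in the AGEs libraries and 97.9% and 98.2% in the BSA libraries.

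Hk2, the hexokinase that HIF-1α raises and that traps glucose as glucose 6-phosphate (chromosome 6 from 82725025 to 82774454), had the smallest p of this group. Its level was 157 and 170 CPM in the AGEs libraries, against 148 and 152 CPM in the BSA libraries. The groups did not overlap, yet the difference was small, with a log2 fold change of 0.13 (SE 0.086, interval -0.058 to 0.31, edgeR's unadjusted p = 0.161). Hk3, the hexokinase of myeloid cells, had 431 and 373 CPM in the AGEs libraries, against 323 and 407 CPM in the BSA libraries, and its groups overlapped. Per length it was the main hexokinase, with 75.4% and 72.2% of the FPKM of the 3 enzymes in the AGEs libraries and 71.4% and 75.1% in the BSA libraries. Hk2 took 16.3% to 19.4% and Hk1 8.23% to 9.34% over the 4 libraries. The log2 fold change of Hk3 was 0.14 and that of Hk1, the housekeeping hexokinase, 0.0030.

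In upper glycolysis 5 of 7 members were above 0 and the median log2 fold change was 0.083, though Pfkl, Aldoa and Tpi1 turned below 0 with GC correction, and Tpi1 also with library size normalization. Pfkfb3 makes fructose 2,6-bisphosphate, the strongest activator of phosphofructokinase (chromosome 2 from 11471430 to 11554071). It had 128 and 130 CPM in the AGEs libraries, against 146 and 141 CPM in the BSA libraries. Both AGEs values were below both BSA values, with a log2 fold change of -0.15 (SE 0.084, interval -0.33 to 0.035, edgeR's unadjusted p = 0.105). Its paralogue Pfkfb4, a HIF target with the same pair of activities, had 42.4 and 42.7 CPM in the AGEs libraries, against 30.0 and 42.0 CPM in the BSA libraries. BSA replicate 1 alone was low, and the log2 fold change of 0.24 (edgeR's unadjusted p = 0.123) was 0.016 without that library and 0.51 (edgeR's unadjusted p = 0.00208) without BSA replicate 2. On the FPKM scale the values were 8.69 and 7.22 in the AGEs libraries and 3.29 and 7.83 in the BSA libraries, with the same library low, and limma gave a log2 fold change of 0.54 (unadjusted p = 0.148).

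The other members of the group catalyse the steps from glucose 6-phosphate to the triose phosphates. Their log2 fold changes were -0.021 for the isomerase Gpi1, 0.083 and 0.12 for the phosphofructokinases Pfkl and Pfkp, 0.11 for the aldolase Aldoa and 0.015 for the triose phosphate isomerase Tpi1. Among the phosphofructokinases Pfkp, the platelet type, gave 73.0% and 67.9% of the FPKM in the AGEs libraries and 72.3% and 67.4% in the BSA libraries. The muscle type Pfkm gave at most 2.48%. Pfkp had 40.4 and 27.4 FPKM in the AGEs libraries and 36.4 and 26.3 FPKM in the BSA libraries. Its CPM were closer, at 238 and 222 in the AGEs libraries and 208 and 216 in the BSA libraries. The share of Pfkp thus depends on the FPKM estimate. Pfkp and Tpi1 overlap Pitrm1 and Spsb2 on the opposite strand, and the sources used here do not tell if strand was used in counting.

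Lower glycolysis had a median log2 fold change of -0.035, with 1 of 4 members above 0. Pkm, whose pyruvate kinase makes the last ATP of the pathway (chromosome 9 from 59656576 to 59679372), was the member with the highest CPM. It had 743 and 688 CPM in the AGEs libraries, against 710 and 673 CPM in the BSA libraries. The ranges overlapped and the log2 fold change was 0.051 (SE 0.084, interval -0.13 to 0.23, edgeR's unadjusted p = 0.558), below 0 with GC correction at -0.081. The table is by gene, so the M1 and M2 splice forms of Pkm were not told apart.

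Pgk1, the phosphoglycerate kinase whose promoter window is printed above (chromosome X from 106187100 to 106203699), had the smallest p of lower glycolysis. Its values were 141 and 131 CPM in the AGEs libraries, against 161 and 137 CPM in the BSA libraries. Only BSA replicate 1 stood above the rest, and the log2 fold change was -0.13 (SE 0.097, interval -0.34 to 0.082, edgeR's unadjusted p = 0.209). The dehydrogenase Gapdh and the mutase Pgam1 had log2 fold changes of -0.053 and -0.017. Pgam1 has processed copies in the table, of which Pgam1-ps2 had 1766 and 1695 counts in the AGEs libraries and 1484 and 1606 in the BSA libraries, so reads of the gene and its copies may have been shared. Gapdh overlaps Iffo1 on the opposite strand.

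The fate of pyruvate is set by lactate dehydrogenase on one side and the pyruvate dehydrogenase complex on the other. Ldha, which makes lactate (chromosome 7 from 46842274 to 46855627), had 389 and 368 CPM in the AGEs libraries, against 384 and 381 CPM in the BSA libraries. The BSA values fell between the AGEs values, and the log2 fold change was -0.015 (SE 0.081, interval -0.19 to 0.16, edgeR's unadjusted p = 0.852). Ldha gave at least 98.3% of the FPKM of Ldha and Ldhb in each of the 4 libraries. Slc16a3 encodes MCT4, which exports lactate, and had 39.3 and 32.7 CPM in the AGEs libraries, against 33.5 and 30.1 CPM in the BSA libraries. Its log2 fold change was 0.18 (edgeR's unadjusted p = 0.195), and its share of the FPKM of the transporters Slc16a1 and Slc16a3 was 66.5% and 65.2% in the AGEs libraries and 61.6% and 59.8% in the BSA libraries.

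Pdk1, a kinase that shuts the pyruvate dehydrogenase complex and a HIF target (chromosome 2 from 71873215 to 71903858), had 27.5 and 26.8 CPM in the AGEs libraries, against 30.1 and 32.3 CPM in the BSA libraries. Both AGEs libraries were below both BSA libraries, but the interval of the log2 fold change of -0.20 (SE 0.12) ran from -0.47 to 0.064 with an unadjusted edgeR p of 0.125. Of the FPKM of the 3 listed kinases, Pdk1 took 45.6% and 40.5% in the AGEs libraries and 44.2% and 44.0% in the BSA libraries. Pdk3 took 36.5% and 43.4% in the AGEs libraries and 42.1% and 42.6% in the BSA libraries. Which of the 2 was the higher thus changed between the AGEs libraries.

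**Figure D3:**
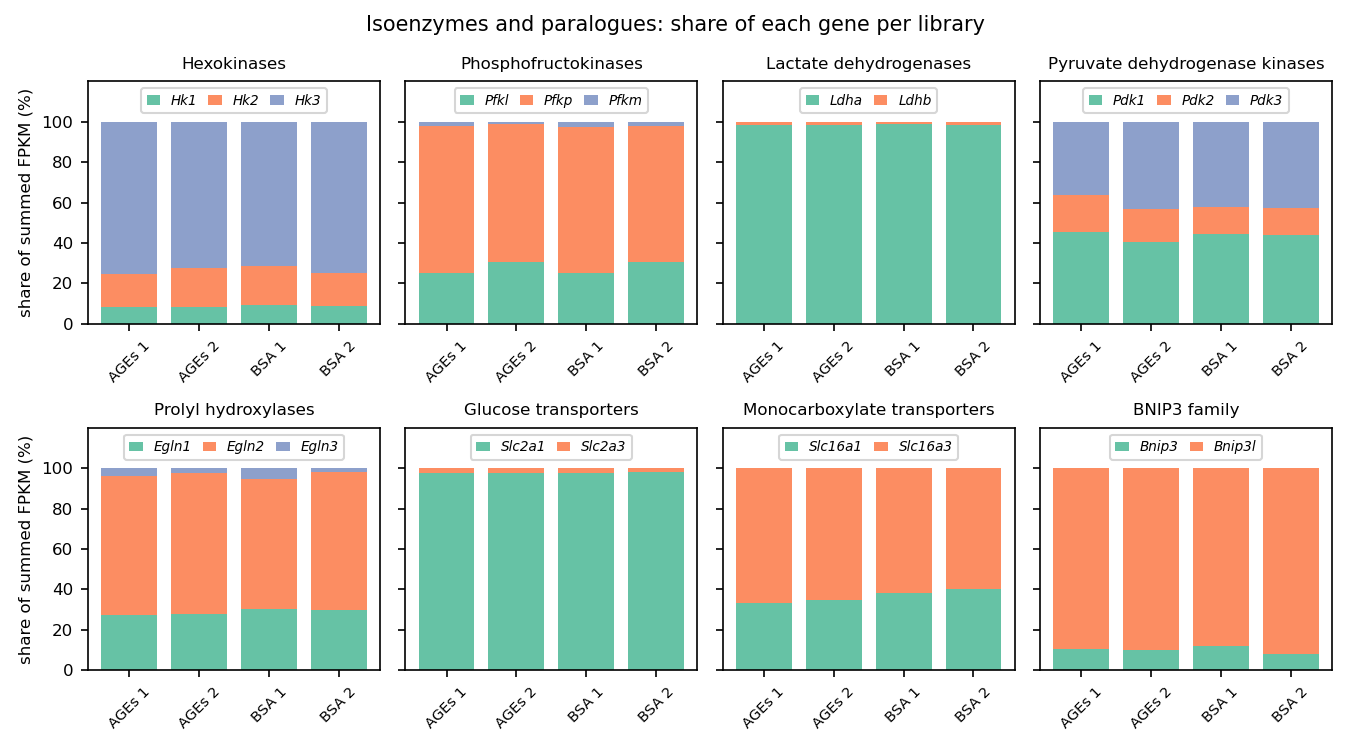
Share of the summed FPKM (%, y axis) taken by each gene of 8 isoenzyme or paralogue sets, as stacked bars for AGEs replicates 1 and 2 and BSA replicates 1 and 2. Hk3 fills 71.4% to 75.4% of the hexokinase bars and Ldha at least 98.3% of the lactate dehydrogenase bars, and the bars of the AGEs and BSA libraries look alike in most panels.

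All 4 members of the pentose phosphate pathway had log2 fold changes above 0, between 0.051 and 0.13 with a median of 0.089, and Taldo1 alone turned below 0, at -0.0048, with GC correction. G6pdx, the X-linked glucose 6-phosphate dehydrogenase that opens the pathway (chromosome X from 74409483 to 74428880), had 90.1 and 83.5 CPM in the AGEs libraries, against 77.2 and 85.5 CPM in the BSA libraries. The groups overlapped, with a log2 fold change of 0.094 (SE 0.097, interval -0.12 to 0.30, edgeR's unadjusted p = 0.354). It overlaps Ikbkg on the opposite strand. Tkt, the transketolase that links the pathway back to glycolysis (chromosome 14 from 30549131 to 30574724), had 170 and 173 CPM in the AGEs libraries, against 154 and 159 CPM in the BSA libraries. Both AGEs libraries were above both BSA libraries, and the log2 fold change was 0.13 (SE 0.083, interval -0.047 to 0.31, edgeR's unadjusted p = 0.134).

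The remaining enzymes of the pathway are Pgd, the source of its other NADPH, and the transaldolase Taldo1. Their log2 fold changes were 0.084 and 0.051, and the intervals of all 4 members lay inside the 1.5-fold limits.

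Among the oxygen sensing genes the median log2 fold change was -0.10. Hif1a, which encodes HIF-1α (chromosome 12 from 73901324 to 73947554), had 189 and 206 CPM in the AGEs libraries, against 257 and 191 CPM in the BSA libraries. BSA replicate 1 was high and BSA replicate 2 lay between the AGEs libraries, with a log2 fold change of -0.18 (SE 0.13, interval -0.46 to 0.095, edgeR's unadjusted p = 0.176). The value was -0.37 without BSA replicate 2 and 0.043 without BSA replicate 1. HIF-1α is controlled mainly as a protein, which was not measured in these libraries.

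Egln1 and Egln3 are prolyl hydroxylases that act on HIF-1α, the second itself a HIF target. Egln1 had a log2 fold change of 0.052, and -0.045 with GC correction. Egln3 was scarce, with 72 and 48 counts in the AGEs libraries, against 70 and 37 counts in the BSA libraries. Its interval, from -1.06 to 0.85 on the log2 scale, leaves a change of 1.5-fold possible in either direction. Per length Egln2 led the 3 hydroxylases, with 68.8% and 70.2% of their FPKM in the AGEs libraries and 64.6% and 68.1% in the BSA libraries, while Egln3 took at most 5.11%.

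The 8 measured HIF targets had a median log2 fold change of -0.037, with 2 above 0 and 6 below. Vegfa, the angiogenic growth factor (chromosome 17 from 46016993 to 46032377), had 90.4 and 68.0 CPM in the AGEs libraries, against 89.0 and 70.2 CPM in the BSA libraries. It differed more between the libraries of a group than between the groups, whose log2 fold change was -0.0060 (SE 0.15, interval -0.34 to 0.33, edgeR's unadjusted p = 0.969). Hilpda, which inhibits lipolysis and promotes lipid droplets, had the same form, with 45.5 and 28.4 CPM in the AGEs libraries, against 43.7 and 31.8 CPM in the BSA libraries. Its log2 fold change was -0.028 (SE 0.26, edgeR's unadjusted p = 0.917).

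In each group, replicate 1 was above replicate 2 for Vegfa, Hilpda and Egln3. Among the oxygen sensing genes and HIF targets, Bnip3, P4ha1 and Ndrg1 had the same order. The log2 differences between replicates 1 and 2 were 0.41 in AGEs and 0.34 in BSA for Vegfa, 0.68 and 0.46 for Hilpda, and 0.65 and 1.16 for Egln3. Vegfa, Hilpda and Egln3 were picked after their values were seen. Within the AGEs group 25 of the 33 members were higher in replicate 1, where 51.1% of all genes were. Within the BSA group 23 were, where 49.9% of all genes were. Of all 33 members, 19 were higher in replicate 1 in both groups and 4 lower in both, where 26.2% and 25.2% of all genes were. Over all genes the same-numbered libraries did not deviate together, with a correlation of 0.028 between the differences. Whether the replicates 1 shared a day or batch is not in the labels.

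**Figure D4:**
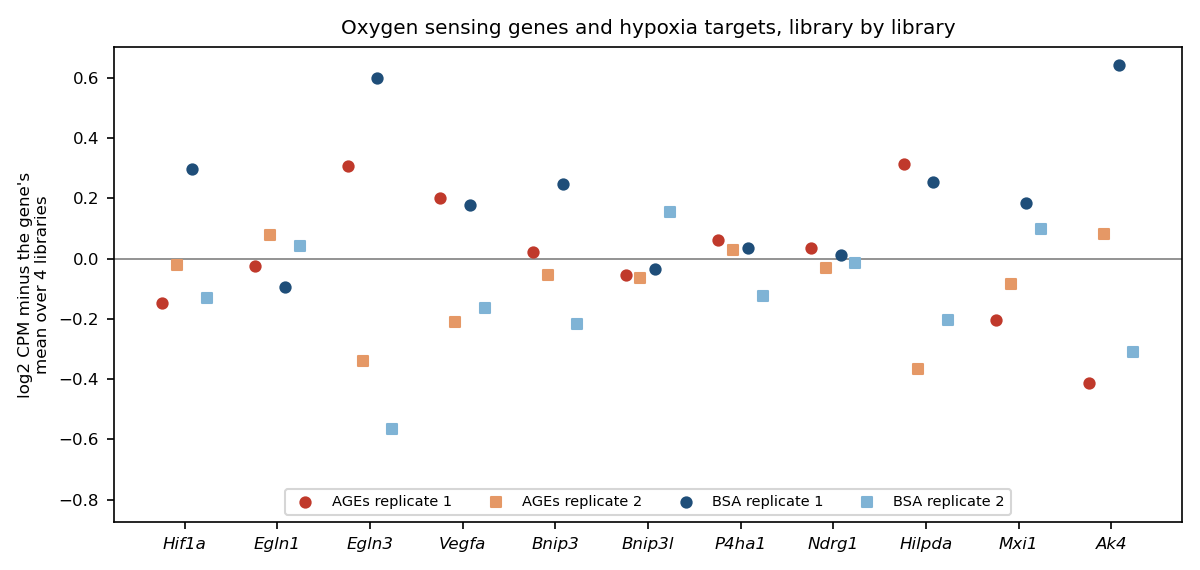
Log2 CPM of each oxygen sensing gene and HIF target in each library, minus the gene's mean over the 4 libraries (y axis), with the AGEs libraries in red and orange and the BSA libraries in dark and light blue, circles for replicate 1 and squares for replicate 2. For Egln3, Vegfa, Bnip3, P4ha1, Ndrg1 and Hilpda both circles lie above both squares. For Bnip3l and Mxi1 both AGEs points lie below both BSA points.

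Mxi1 encodes a MYC antagonist of the MAX network that HIF-1 induces (chromosome 19 from 53310128 to 53373293), and was the member with the smallest p. It had 42.5 and 46.2 CPM in the AGEs libraries, against 55.7 and 52.5 CPM in the BSA libraries. The AGEs libraries averaged 44.4 ± 2.62 CPM and the BSA libraries 54.1 ± 2.28 CPM (SD, n = 2 each), without overlap. The log2 fold change was -0.28 (SE 0.11, interval -0.51 to -0.055), with an unadjusted edgeR p of 0.0192 and an adjusted p of 0.848. Its fold, 0.821, is within the study's limit, so that it did not pass the threshold. The direction was kept with any 1 library left out, between -0.35 and -0.22, while edgeR's unadjusted p was 0.153 without AGEs replicate 1 and 0.0670 without BSA replicate 1. At a p under 0.05 and lower in the AGEs libraries stood 2.21% of all genes.

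The other targets are Bnip3 and Bnip3l, mitophagy receptors; P4ha1, a collagen prolyl hydroxylase; Ndrg1, a stress-response gene; and Ak4, a mitochondrial adenylate kinase. Bnip3l had 234 and 233 CPM in the AGEs libraries, against 238 and 271 CPM in the BSA libraries, a log2 fold change of -0.12 (edgeR's unadjusted p = 0.188). Bnip3l is also abundant in maturing red cells, and the erythroid sum was 2.45 and 221 CPM in the AGEs libraries, against 8.79 and 18.1 CPM in the BSA libraries. The part of red cells in its values was not tested. Ak4 was scarce, with 55 and 83 counts in the AGEs libraries, against 92 and 57 counts in the BSA libraries, and its log2 fold change of -0.39 had an interval from -1.22 to 0.45. Bnip3, P4ha1 and Ndrg1 had log2 fold changes of -0.046, 0.087 and 0.0035, of which Bnip3 and Ndrg1 changed sign with GC correction.

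Further genes of the same pathways were counted from 5 lists of 108 genes, of which 89 were tested. Of the 89, 1 was higher and 2 were lower in the AGEs libraries past the threshold, and 11 had an unadjusted p under 0.05. These are 3.37% and 12.4% of the 89, beside 1.77% and 5.64% of all genes tested. None of the 10 tested glycogen genes, none of 16 for lactate and pyruvate and none of 9 for the pentose phosphate pathway passed it. The median log2 fold changes of the lists lay between -0.033 and 0.024.

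Angptl4, a HIF and PPAR target that inhibits lipoprotein lipase, was higher in the AGEs libraries. It had 6.07 and 5.27 CPM in the AGEs libraries, against 2.65 and 4.17 CPM in the BSA libraries, a log2 fold change of 0.72 (SE 0.31, edgeR's unadjusted p = 0.0344). Bpgm, which makes 2,3-bisphosphoglycerate in red cells, was lower. Its level was 2.66 and 3.75 CPM in the AGEs libraries, against 5.58 and 5.80 CPM in the BSA libraries, a log2 fold change of -0.83 (SE 0.30, edgeR's unadjusted p = 0.0157). The erythroid sum, given above, was highest in AGEs replicate 2, and its part in the value of Bpgm was not tested. Vldlr, a lipoprotein receptor and HIF target named after its values were seen, had 17 and 9 counts in the AGEs libraries, against 24 and 28 in the BSA libraries, a log2 fold change of -1.22 (edgeR's unadjusted p = 0.0449). None of the 3 calls held throughout. That of Bpgm was lost in edgeR without AGEs replicate 1 (unadjusted p = 0.136) or BSA replicate 2 (unadjusted p = 0.0513). That of Angptl4 was lost in DESeq2 (unadjusted p = 0.0524) and in edgeR without AGEs replicate 1 (unadjusted p = 0.146), AGEs replicate 2 (unadjusted p = 0.0509) or BSA replicate 1 (unadjusted p = 0.195). That of Vldlr was lost in DESeq2 (unadjusted p = 0.118) and in edgeR without AGEs replicate 2 (unadjusted p = 0.283) or either BSA library (unadjusted p = 0.0981 and unadjusted p = 0.0876), or with GC correction alone (unadjusted p = 0.0527) or with the block (unadjusted p = 0.0545). Vldlr did not pass the stricter filter, and all 3 calls were lost with limma on FPKM.

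Pgls, the lactonase between G6pdx and Pgd in the pentose phosphate pathway, had the smallest p of all these genes. It had 28.9 and 33.1 CPM in the AGEs libraries, against 20.2 and 22.9 CPM in the BSA libraries. The groups did not overlap, and the log2 fold change was 0.52 (SE 0.14, edgeR's unadjusted p = 0.00235, adjusted p = 0.785), a fold of 1.44 that is under the limit of 1.5. It was past the limit, at 0.62, when AGEs replicate 1 was left out and, at 0.63, when BSA replicate 2 was, and with GC correction it was 0.40 (edgeR's unadjusted p = 0.00977). Its neighbours in the pathway, G6pdx and Pgd, differed by 0.094 and 0.084 on the log2 scale.

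Within the fold limit at an unadjusted edgeR p under 0.05 stood also Dld, a subunit of the pyruvate dehydrogenase complex (log2 fold change -0.29, unadjusted p = 0.0173), Pgm2l1, which makes glucose 1,6-bisphosphate (-0.33, unadjusted p = 0.0377), and Pck2, the mitochondrial PEP carboxykinase (0.24, unadjusted p = 0.0494). From the hypoxia list, Anxa2, a calcium-dependent membrane-binding protein, had 613 and 496 CPM in the AGEs libraries, against 442 and 455 CPM in the BSA libraries (log2 fold change 0.31, edgeR's unadjusted p = 0.00907). Tfrc, the transferrin receptor, had a log2 fold change of 0.24 (edgeR's unadjusted p = 0.0303). Named after their values were seen, the cytokine Mif and the HIF hydroxylase Egln2 had log2 fold changes of 0.40 (edgeR's unadjusted p = 0.0388) and 0.26 (unadjusted p = 0.0415). With GC correction these were 0.18 (edgeR's unadjusted p = 0.309) and 0.048 (unadjusted p = 0.655). Without AGEs replicate 2, Mif passed the threshold at 0.60 (edgeR's unadjusted p = 0.00787).

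None of these 7 genes stayed at an unadjusted p under 0.05 throughout. In edgeR, Dld had an unadjusted p = 0.204 without AGEs replicate 2 and an unadjusted p = 0.0597 with GC correction. Pgm2l1 had an unadjusted p = 0.248 without AGEs replicate 1, an unadjusted p = 0.377 without BSA replicate 1 and an unadjusted p = 0.0719 with GC correction. Pck2 had an unadjusted p = 0.461 without AGEs replicate 1, an unadjusted p = 0.194 without BSA replicate 2, and an unadjusted p = 0.0739 in DESeq2. For Anxa2 the log2 fold change was 0.15 without AGEs replicate 1, with edgeR's unadjusted p = 0.258. Tfrc had an unadjusted p = 0.282 without AGEs replicate 2 and an unadjusted p = 0.185 without BSA replicate 1. Mif had an unadjusted p = 0.414 without AGEs replicate 1 and an unadjusted p = 0.158 without BSA replicate 1. For Egln2, edgeR's unadjusted p was above 0.05 without AGEs replicate 1 (unadjusted p = 0.0551), AGEs replicate 2 (unadjusted p = 0.223) or BSA replicate 1 (unadjusted p = 0.218). In DESeq2 that of Mif was 0.0528 and that of Egln2 0.0749. With all 4 libraries, the genes of these lists had an adjusted p of at least 0.785 in edgeR.

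**Figure D5:**
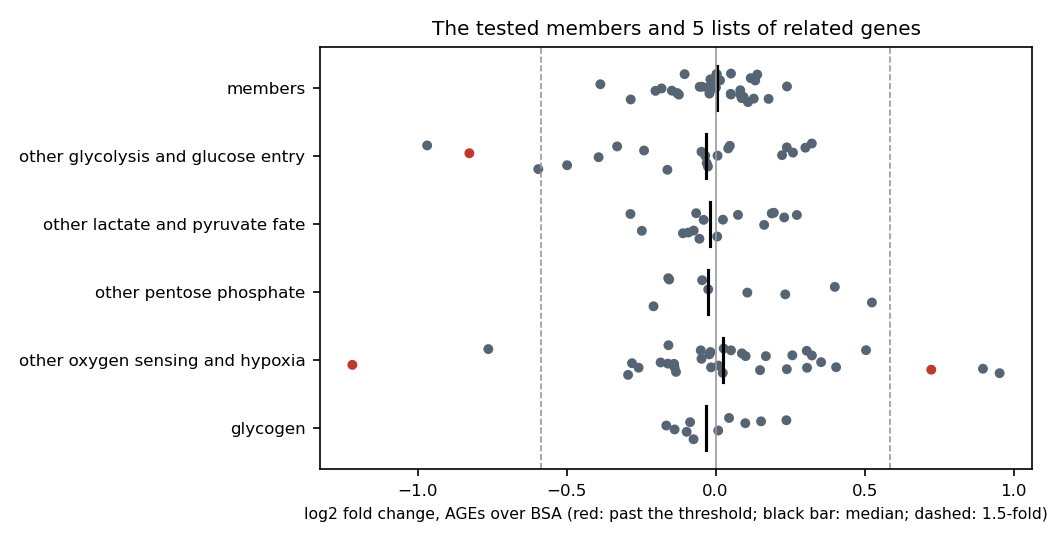
Log2 fold change of AGEs over BSA (x axis) for the 33 tested members (top row) and for the tested genes of 5 lists of related genes, 1 point per gene, red where past the threshold, with the median as a black bar and dashed lines at a 1.5-fold change. The members hold no red point and the lists hold 3, 1 to the right (Angptl4) and 2 to the left (Bpgm and Vldlr).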

How the data were processed

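RNA of 4 libraries, 2 of AGEs and 2 of BSA macrophages, had been depleted of ribosomal RNA and made into stranded libraries. The authors mapped the paired reads to mm10 with HISAT2 2.1.0 and estimated expression with StringTie 2.1.3b. The deposited table gives read counts per gene, and neither the counting method nor its use of strand is given in the sources used here. The authors also deposited FPKM, a value per transcript length and library depth, which was used for levels between genes and in 1 alternative test. Their TPM, log2 normalized values and comparison columns (a fold change, a signal of mean normalized counts, a score and p-values) were deposited too and were not used. No listed gene has a count under 1, so genes absent from a library may be missing from the table.

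The test of the counts was run in R 4.3.3 with edgeR 4.0.16 (TMM, filterByExpr, robust glmQLFit and glmQLFTest, AGEs over BSA, no block), and p-values were adjusted by Benjamini-Hochberg over the 14181 genes kept. CPM values are TMM-normalized. Standard errors are log2 fold changes over the square root of F, and the 95% intervals use the fit's degrees of freedom. The study used DESeq2 with the threshold applied here. The biological coefficient of variation was 12.9%. Coordinates and promoters are RefSeq's for GRCm38.p6, to which 15534 of 15575 gene IDs matched.

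The members, lists and rules were chosen with earlier results of these data known. Full statistics are given for members past the threshold or at an unadjusted p under 0.05, the smallest p of each role, and 8 control points (Slc2a1, Hk2, Pfkfb3, Pkm, Ldha, G6pdx, Hif1a and Vegfa), and up to 3 genes of each further list by p. Values of Vldlr, Mif and Egln2 and of Hk3, Pfkfb4, Slc16a3, Egln3, Hilpda, Bnip3l and Ak4 per library were added after they had been seen. Alternatives were DESeq2 1.42.0, normalization by RLE or by library size, dropping the filter, a stricter filter of 50 counts in 2 libraries or more, replicate number as a block, a loess correction (span 0.5) for GC content, taken from the longest GENCODE transcript of 92.8% of genes tested, the GC correction with the block, each library left out, the adjusted p, and limma 3.58.1 on log2(FPKM + 1). The steps were also run on counts simulated with the fitted dispersions, which cannot show whether those dispersions hold for these libraries.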

Additional observations from a re-analysis of the deposited data

How the results depend on the processing

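The count of 0 members past the threshold held in every alternative run. The 251 genes past it over the whole table were 143 with DESeq2, 127 with the stricter filter of 50 counts in 2 libraries or more, 102 with limma on log2(FPKM + 1) and 0 at an adjusted p under 0.05, and 270 to 543 with 1 library left out, most without BSA replicate 2. The 117 higher were 64, 64, 64 and 0 in that order and 125 to 311 with a library left out, and the 134 lower were 79, 63, 38 and 0 and 121 to 232. At an adjusted p under 0.05 DESeq2 called 5 genes, and edgeR 8 without either AGEs library, 6 without BSA replicate 1 and 18 without BSA replicate 2. The median of the members was -0.055 to 0.080 with a library left out, the highest without AGEs replicate 2. Without BSA replicate 2 the log2 fold change was -0.37 for Hif1a, 0.32 for Hk3, -0.32 for Mxi1, 0.51 for Pfkfb4 and -0.24 for Pgk1. That of Hilpda was -0.41 without AGEs replicate 1, and that of Bnip3l was -0.22 without BSA replicate 1. That of Mxi1 was -0.35 without AGEs replicate 2. The labels do not say that a replicate number marks a pair, and over all genes the differences between replicates 1 and 2 of the groups correlated at 0.028, so the numbers were not treated as a pairing. With the numbers as a replicate block 264 genes passed, Mxi1 had an unadjusted edgeR p of 0.0189, and Slc2a1 (-0.0014) alone of the members changed sign. Egln3, Ak4 and Vldlr had under 100 counts in each library and wide intervals.

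The other sign changes were of log2 fold changes near 0, none of them past the threshold. They were Slc2a1 (-0.020), Hk1 (-0.017), Tpi1 (-0.0066) and Ndrg1 (-0.018) with library size normalization; Slc2a1 (-0.00049) with the stricter filter; Vegfa (0.00011) with no filter; and Gpi1 (0.0077), Pgam1 (0.012), Ldha (0.011), Vegfa (0.019) and P4ha1 (-0.020) with limma. With GC correction they were Slc2a1 (-0.061), Hk1 (-0.10), Pfkl (-0.036), Aldoa (-0.0092), Tpi1 (-0.039), Pkm (-0.081), Taldo1 (-0.0048), Egln1 (-0.045), Bnip3 (0.026) and Ndrg1 (-0.013). With GC correction and the block they were Slc2a1 (-0.064), Hk1 (-0.10), Pfkl (-0.036), Aldoa (-0.012), Tpi1 (-0.043), Pkm (-0.080), Taldo1 (-0.0045), Egln1 (-0.045), Bnip3 (0.037) and Ndrg1 (-0.013).
With 1 library left out, the log2 fold change ranged from -0.80 to 0.17 for Ak4, from -0.029 to 0.24 for Aldoa, from -0.26 to 0.20 for Bnip3, from -0.018 to 0.13 for Egln1, from -0.59 to 0.60 for Egln3, from -0.15 to 0.049 for Gapdh, from -0.066 to 0.025 for Gpi1, from -0.37 to 0.043 for Hif1a, from -0.41 to 0.27 for Hilpda, from -0.082 to 0.096 for Hk1, from -0.022 to 0.32 for Hk3, from -0.055 to 0.025 for Ldha, from -0.028 to 0.037 for Ndrg1, from -0.074 to 0.043 for Pgam1, from -0.0044 to 0.11 for Pkm, from -0.080 to 0.080 for Slc2a1, from -0.093 to 0.12 for Tpi1 and from -0.22 to 0.19 for Vegfa. The lone library of a group is then assumed to vary like the others. The causes were not tested.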
